A study of Mus musculus with 8 samples.

Results

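Dapl1 (death-associated protein-like 1) was 1 of the 24421 genes counted in single cells from mouse islets, and it was described here in all 8 samples because its level in insulin-producing β-cells was higher after partial pancreatectomy (PPTx) than without it. It is a small protein and a paralog of Dap. Both have been found on dormant ribosomes in eggs, where they occupy the peptide exit tunnel next to the translation factor eIF5A. Dapl1 has also been described in stratified epithelia, in the retinal pigment epithelium, where it restrains growth, and in memory T cells. The 4 PPTx samples were islets of male C57BL/6J mice taken 2 days after surgical removal of 50% of the pancreas, and the 4 control samples were islets of mice of the same strain, sex and age (8 weeks) that had no operation, so that the loss of tissue cannot be told apart from the surgery or from its isoflurane anaesthesia. The tissue removed was on the splenic side, so the region of the pancreas that gave the islets cannot be told apart from the operation either. Islets were pooled from 1 to 3 mice for a sample, no mutant allele is named, and 1232 of the 1240 deposited cells passed the limits on genes and transcripts. Cells were called by the hormone that made up at least 60% of their hormone transcripts.

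The 8 samples held 65 to 294 kept cells and 236645 to 1580152 unique transcripts (unique molecular identifiers, UMIs) before filtering. There were 955 β-cells (376 control and 579 PPTx), 115 α-cells (95 control and 20 PPTx) and 132 PP-cells, or pancreatic polypeptide cells (32 control and 100 PPTx). The rest were 14 δ-cells, 15 cells of mixed hormones and 1 ε-cell. Median depth of β-cells was 3494 to 10378 UMIs in control and 3660 to 9583.5 UMIs in PPTx samples, and depth therefore varied more within a group than between the groups. Insulin transcripts made up 50.9 to 63.0% of β-cell UMIs. Other β-cell markers, in counts per 1e6 UMIs (CPM) pooled over all β-cells, were Iapp at 48770, G6pc2 at 1998, Ucn3 at 530, Slc2a2 at 218.5, Nkx6-1 at 129.5 and Pdx1 at 6.57. Mafa, which encodes a transcription factor of mature β-cells, was the lowest on that list, at 0.197 ± 0.393 CPM (SD, n = 4) in both groups. Why so few Mafa transcripts were counted was not tested. Control replicate 1 was the sample with the fewest cells, and its Dapl1 value stood apart from the other controls, so that the control means of Dapl1 in β-cells are also given without it. One barcode occurred in 2 samples (PPTx replicates 3 and 4).

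Dapl1 lies on the forward strand of chromosome 2 (chr2:59484653-59505020, GRCm38.p6, the assembly of mm10) and spans 20368 bases, with no other RefSeq gene overlapping it. The 250 bases that precede its RefSeq start, at chr2:59484403-59484652, are shown as its promoter in the annotation; where transcripts began in these cells was not measured. Capitals mark a TATA box (TATAAA) that begins 29 bases before the start.

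Dapl1 promoter: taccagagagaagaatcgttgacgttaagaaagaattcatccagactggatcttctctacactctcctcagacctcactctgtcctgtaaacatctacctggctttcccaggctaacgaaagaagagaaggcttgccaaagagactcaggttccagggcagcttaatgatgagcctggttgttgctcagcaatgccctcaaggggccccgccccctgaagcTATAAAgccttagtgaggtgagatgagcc

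The motifs were searched on both strands, and TATAAA was found in 12.4% of the 32851 RefSeq promoter windows of this length. A GC box (CCGCCC, in 32.7% of windows) began 43 bases before the start, and a partial site of the cyclic AMP response element (TGACGT, in 6.47%) began 231 bases before it. The E-box CANNTG (66.2%), CCAAT (33.8%) and the homeobox core TAATTA (4.84%) had no match in this window. None of these matches is a measured binding site. Of the genes around Dapl1, up to 394343 bases away, 3 had enough counts to be tested between PPTx and control β-cells. Their values are a description, as 0.270% of all genes other than Dapl1 were called in that comparison. Pkp4, a plakophilin of cell junctions 129448 bases upstream, had a log2 change of -0.45 (SE 0.23; edgeR adjusted p = 0.548). Baz2b, a chromatin reader, was at -0.05 (SE 0.29; edgeR adjusted p = 0.984), Wdsub1 was at -0.41 (SE 0.38; edgeR adjusted p = 0.794), and Tanc1 had 47 UMIs in all β-cells, too few to be tested.

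The first comparison was the level of Dapl1 in β-cells of PPTx and control islets. Control samples 1 to 4 had 49.9, 161, 183 and 176 CPM, from 10, 76, 232 and 153 UMIs. PPTx samples 1 to 4 had 299, 314, 347 and 385 CPM, from 235, 399, 338 and 211 UMIs. The groups did not overlap, and control replicate 1 was far below the other 3 controls, which lay close together. Mean levels were 142 ± 62.3 CPM in control and 336 ± 37.9 CPM in PPTx (SD, n = 4 each), a ratio of 2.36. Without control replicate 1 the control mean was 173 ± 11.0 CPM and the ratio 1.94. On the log2 scale of edgeR the difference was 1.03 (SE 0.23), and it was 0.97 among β-cells without a transcript of Top2a or Cdk1. Dapl1 was chosen for this difference, so no p-value is given. Among the other 5924 genes tested, 0.270% were called in either direction (16 genes, edgeR adjusted p under 0.05) and 0.152% as higher after PPTx. The groups did not overlap for 6.04% of them, and for 4.91% the PPTx values were the higher ones.

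**Figure D1:**
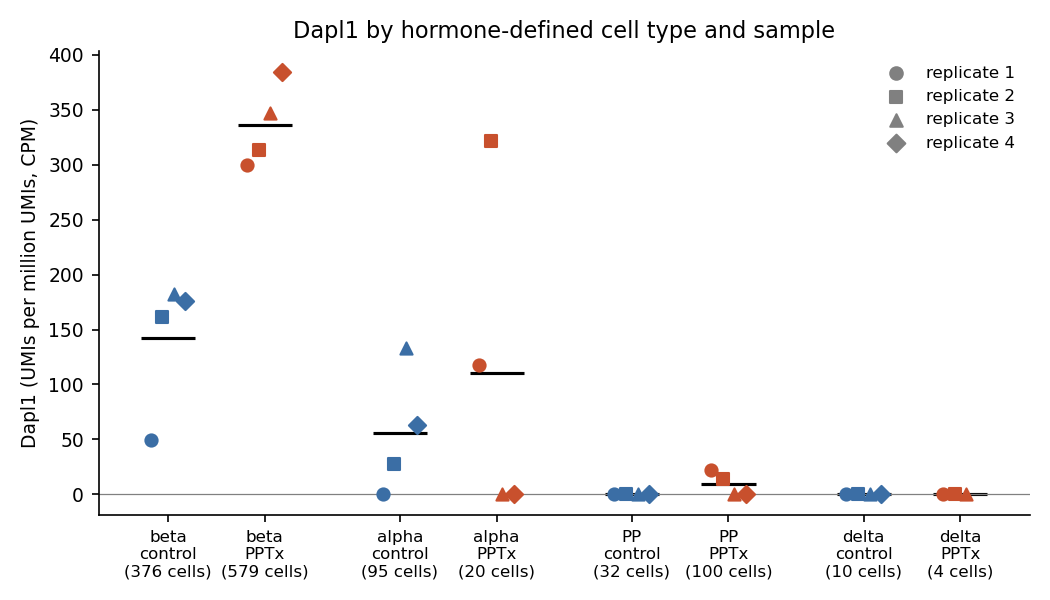
Dapl1 level (vertical axis, CPM) in each sample, for cells called by their hormone in control (blue) and PPTx (orange) islets. Each symbol is 1 sample, its shape is the replicate number, and horizontal lines are means over samples; the 4 PPTx β-cell samples (299 to 385 CPM) lie above the 4 controls (49.9 to 183 CPM), while PP-cells and δ-cells lie at or near 0.

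The difference was present in how many β-cells held a Dapl1 transcript and in how many transcripts those cells held. Both measures rise with the mean level of a gene, so they describe the difference for which Dapl1 was chosen and are no separate results. They were not compared with those of genes of like mean level. Each cell was reduced at random to 2700 UMIs, which 861 β-cells reached, so that all cells were counted to like depth. The 94 shallower β-cells left out were 26 of control and 68 of PPTx, and thinning leaves in place any relation of Dapl1 per UMI to the depth of a cell. A Dapl1 UMI was then found in 13.6, 30.7, 26.5 and 29.8% of β-cells in control samples 1 to 4. The shares in PPTx samples 1 to 4 were 39.2, 43.5, 46.6 and 46.9%. Every PPTx sample was above every control sample, as for 3.73% of the other genes, with means of 44.0 ± 3.58% and 25.2 ± 7.89% (SD, n = 4 each), the latter 29.0 ± 2.2% without control replicate 1. Cells at full depth gave 59.4 ± 6.94% and 42.0 ± 19.7% (50.5% without control replicate 1), and there the groups overlapped, with 64.2% in control replicate 3 against 54.4 and 52.6% in PPTx replicates 2 and 4. In cells with Dapl1, the mean number of its UMIs after thinning was 1.92 ± 0.27 in PPTx and 1.33 ± 0.20 in control (1.39 without control replicate 1). Cells with at least 2 UMIs made up 21.5 ± 4.95% of PPTx and 6.22 ± 3.33% of control β-cells (7.54 ± 2.5% without control replicate 1). Cells with at least 4 UMIs were 2.06 to 9.01% of PPTx β-cells and 0 to 1.75% of control β-cells, and were absent from the 44 and 75 thinned β-cells of control replicates 1 and 2. The most Dapl1 UMIs in a thinned cell were 11, in PPTx replicate 4, where 53.2% of β-cells still had none.

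**Figure D2:**
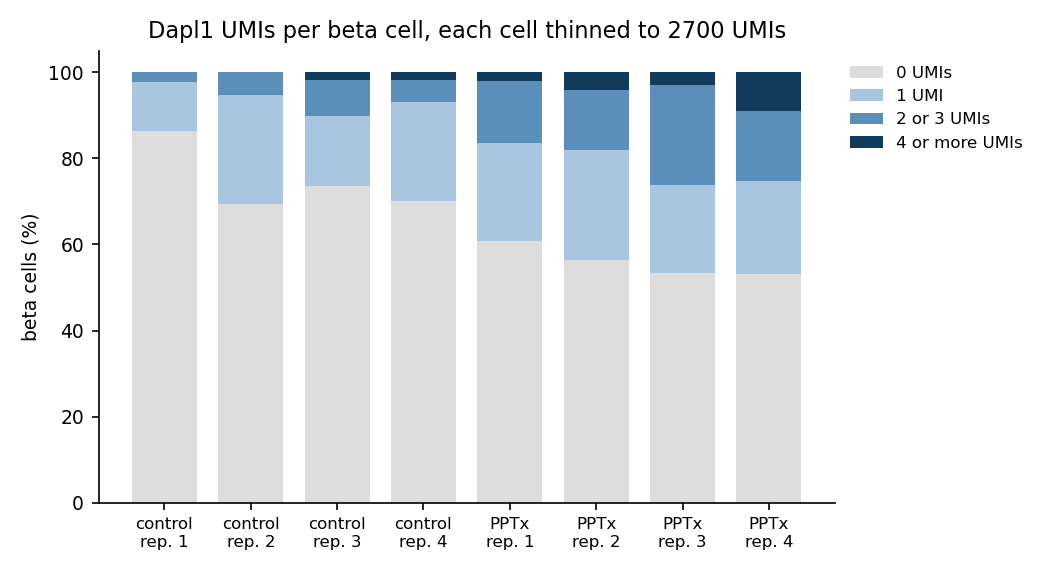
Share of β-cells (vertical axis, %) with 0, 1, 2 or 3, and 4 or more Dapl1 UMIs in each sample after every cell was thinned to 2700 UMIs. The grey part, cells with 0 UMIs, is 69.3 to 86.4% in the control samples and 53.2 to 60.8% in the PPTx samples.

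The tenth of β-cells with the most Dapl1 held 41.8 to 50.4% of its thinned UMIs in the PPTx samples and 44.4 to 85.7% in the control samples, shares that low counts alone also raise. The Fano factor, the variance over the mean, was 1.51, 2.2, 1.69 and 2.78 in PPTx samples 1 to 4, above 88.6 to 99.1% of the genes of like mean level. In control samples 3 and 4 it was 1.66 and 1.51, above 98.8 and 95.5% of such genes, and in control samples 1 and 2 it was 1.15 and 0.95, above 63.1 and 22.9%. Deeper cells had more Dapl1 per UMI. With the β-cells of a sample split by depth into 3 equal parts, the deepest part exceeded the shallowest in 6 of 8 samples, with means of 173 ± 103 against 120 ± 78.6 CPM in control (217 against 131 CPM without control replicate 1) and 398 ± 28.5 against 256 ± 63.2 CPM in PPTx (SD, n = 4). Among β-cells of 4000 to 8000 UMIs the control samples ranged from 41.7 to 155 CPM and the PPTx samples from 204 to 434 CPM, and 3.16% of the other genes had all PPTx samples above all controls in this window, which was set after seeing the data.

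Dapl1 was next compared between islet cell types of the same samples. Of its 1715 UMIs in kept cells, 1654 were in β-cells. In the 132 PP-cells 6 UMIs were found, all in PPTx replicates 1 and 2, a pooled level of 8.05 CPM. In each of the 7 samples with at least 5 PP-cells the β-cell level was the higher one, by 261 ± 89.4 CPM (SD), with p = 0.01562 in a two-sided exact sign-flip permutation test, the smallest it can give. The pooled level was 32.7 times higher in β-cells (95% interval of counting error 15 to 89.2), and the log2 difference in edgeR was 5.08 (SE 0.32, adjusted p = 2.1e-30), in a comparison where 31.0% of the other genes were called, 16.2% as higher in β-cells. After thinning, 1 of 113 PP-cells held a Dapl1 UMI (0.885%, exact 95% interval 0.0224 to 4.83%), against 37.1% of β-cells (33.8 to 40.4%), and median depths before thinning were 5206 and 6061 UMIs. These intervals cover counting error alone. No Dapl1 UMI occurred in the 14 δ-cells. At the β-cell level of their own samples the δ-cells would hold 8.54 UMIs. With 3 UMIs as the limit a count of 0 allows over the group (69.3 CPM), β-cells would be at least 2.85-fold higher. This bound covers counting error alone and not the spread between cells. In each of the 7 samples alone the δ-cells were too few to show a difference, since the limit of a count of 0 lay above the β-cell level, and no test over samples is given.

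The α-cells, which secrete glucagon, were intermediate and variable. Control samples 1 to 4 had 0, 27.8, 133 and 63.0 CPM and PPTx samples 1 to 4 had 118, 322, 0 and 0 CPM. The groups overlapped, with samples at 0 in both, and only 20 of the 115 α-cells came from PPTx islets. Of the 53 Dapl1 UMIs in α-cells, 32 were in 9 cells of control replicate 3 and 11 were in 1 cell of PPTx replicate 2. The β-cells were higher in 5 of the 6 samples with at least 5 α-cells, by 114 ± 125 CPM (SD), with p = 0.0625 in the two-sided exact sign-flip permutation test, which could have reached 0.03125. The model over all genes gave a log2 difference of 1.34 (SE 0.24, edgeR adjusted p = 1.2e-07), where 39.1% of the other genes were called, 21.7% as higher in β-cells. After thinning, 17.0% of α-cells held a Dapl1 UMI (16 of 94, exact 95% interval 10.1 to 26.2%), and median depth before thinning was 3973 UMIs. The 18 α-cells with Dapl1 had a median insulin share of 0.691% of their UMIs, and the 97 without had 0.760%. Ins2, measured the same way, was at 7579 CPM in α-cells, 8314 CPM in PP-cells and 499900 CPM in β-cells, whereas Dapl1 was at 108, 8.05 and 259 CPM. Relative to Ins2, the pooled level of Dapl1 was higher in α-cells than in β-cells or PP-cells, but 32 of the 53 UMIs behind the α-cell value were from control replicate 3. The part of β-cell transcripts in the α-cell values of Dapl1 was not tested. The order of pooled levels was β, α and PP, and α-cells were above PP-cells in 4 of the 5 samples that had enough of both (p = 0.125 by sign-flip permutation, exact and two-sided). Both levels were 0 in PPTx replicate 3, and with that tie this p is the smallest the test could give.

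Genes that mark other cells were also read in the β-cells. Summed markers of other islet cells were at 1649 to 2616 CPM in control and 1791 to 3591 CPM in PPTx for α-cells, at 110 to 1534 and 142 to 821 CPM for δ-cells, and at 299 to 5618 and 3352 to 5466 CPM for PP-cells. The 5 T-cell markers (Cd3e, Cd3d, Cd3g, Cd8a and Tcf7) had no UMI in any β-cell, and of the 5 endothelial markers Pecam1 and Cdh5 had none. The summed endothelial markers ranged from 0.787 to 9.97 CPM in control and from 1.82 to 8.92 CPM in PPTx samples. The summed immune markers ranged from 0 to 35.4 CPM in control and from 0 to 132 CPM in PPTx samples, the acinar markers from 0 to 15 and from 6.16 to 102 CPM, and the stellate markers from 0 to 21.8 and from 1.03 to 228 CPM. The ductal markers were at 152 to 202 CPM in control and 147 to 298 CPM in PPTx. The part of such transcripts in the PPTx values of Dapl1 was not tested.

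Dapl1 was then compared between β-cells with and without a UMI of Top2a or Cdk1, which encode a topoisomerase and a kinase that dividing cells need. There were 48 β-cells with such a UMI, 10 in control and 38 in PPTx. In these cells the level of Dapl1 was 0, 301, 458 and 317 CPM in control samples 1 to 4, where they numbered 1, 1, 4 and 4. In PPTx samples 1 to 4 it was 754, 485, 657 and 543 CPM, from 7, 17, 9 and 5 cells. In the other β-cells it was 50.4, 159, 172 and 171 CPM in control and 257, 300.1, 314 and 379 CPM in PPTx. The cells with Top2a or Cdk1 were higher in 7 of 8 samples, and the exception was the single cell of control replicate 1. In control replicate 4 all 8 Dapl1 UMIs of these cells were in 1 of the 4, so that 25% of them were positive against 43.1% of the other β-cells. The mean difference was 214 ± 163 CPM (SD, n = 8), with p = 0.01562 in a two-sided exact sign-flip permutation test, whose smallest p is 0.007812. In the 6 samples with at least 3 such cells they were higher in 6, by 270.0 ± 135 CPM (exact sign-flip permutation p = 0.03125, the smallest possible).

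The log2 difference in edgeR was 0.95 (SE 0.20, adjusted p = 1.7e-04), in a comparison where 6.68% of the other 1048 genes were called, 44 higher (4.20%) and 26 lower. Under other scalings that balance turned over, to 43 higher and 61 lower with RLE size factors and 27 higher and 37 lower with DESeq2, while Dapl1 stayed higher (log2 differences 0.84 and 0.81). When cells were thinned to 2700 UMIs, 24 of the 48 cells remained, the log2 difference was 0.82 and the call was lost (edgeR adjusted p = 0.254). The mean number of Dapl1 UMIs per thinned cell was then 1.94 against 0.807 in PPTx (18 cells with Top2a or Cdk1) and 0.333 against 0.375 in control (6 such cells). It was also lost without a filter on low counts (log2 difference 0.19, edgeR adjusted p = 0.836). Median depths were 6998 UMIs in cells with Top2a or Cdk1 and 6002 UMIs in the others, and among cells of at least 5000 UMIs the log2 difference was 0.96 (edgeR adjusted p = 5.5e-04). Levels in cells with these UMIs were 269 ± 193 CPM in control and 610 ± 120 CPM in PPTx, beside 138 ± 58.9 and 312 ± 50.7 CPM in the other β-cells (SD, n = 4 each). Without control replicate 1 the control levels were 359 ± 86.0 and 168 ± 7.47 CPM (SD, n = 3). Hormone transcripts of other islet cells moved with these classes. In cells with Top2a or Cdk1, Sst, the δ-cell hormone, fell by 3.07 on the log2 scale (SE 0.33, edgeR adjusted p = 3.64e-18) and was lower in 8 of 8 samples. Ppy, the PP-cell hormone, fell by 2.90 (SE 0.34, edgeR adjusted p = 3.59e-15), also in 8 of 8, and Pyy, peptide YY, by 2.79 (SE 0.35, edgeR adjusted p = 2.47e-13), in 7 of 8. Gcg had a log2 difference of -0.54 (SE 0.40, edgeR adjusted p = 0.519). The sums for cells with Top2a or Cdk1 came from 1 to 17 cells of a sample, beside 54 to 220 other β-cells, and Gcg ranged from 0 to 17000 CPM in them. A few cells can miss or hold a rare hormone-rich cell, and the part of class size in these hormone differences was not tested. The part of these transcripts in the differences between the classes was not tested. Whether the difference between the cell classes itself differed between PPTx and control was not tested.

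**Figure D3:**
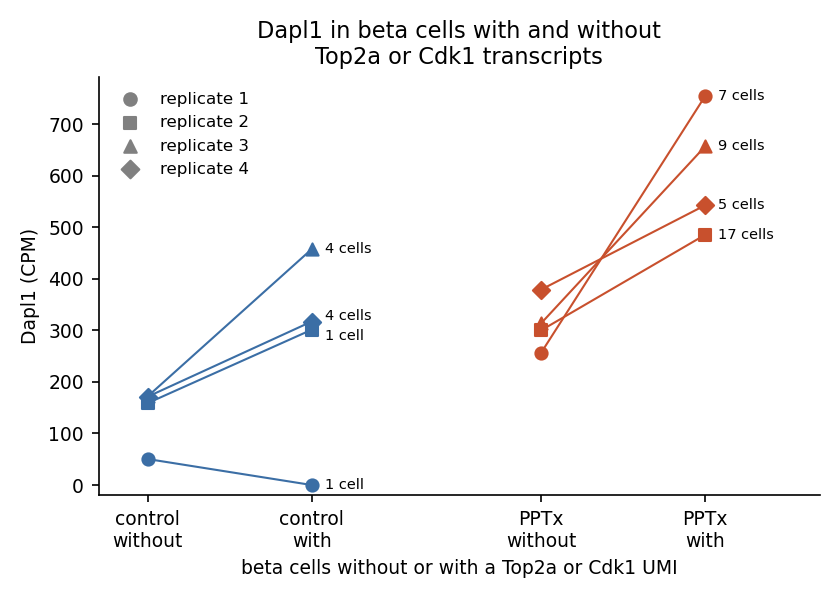
Dapl1 level (vertical axis, CPM) in β-cells without and with a Top2a or Cdk1 UMI, with a line joining the 2 values of each sample and the number of cells with such a UMI beside it. The line rises in 7 of 8 samples and falls in control replicate 1, which has 1 such cell.

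The genes whose counts went with Dapl1 from cell to cell were ranked by the mean of the 8 within-sample Pearson correlations, over thinned β-cells and 2066 genes with a UMI in at least 10% of cells. These correlations are weak, share libraries and depth, and are given as a description across cells, which are not replicates. Fkbp11, a peptidyl-prolyl isomerase of the secretory pathway, was first with a mean r of 0.21, positive in 8 of 8 samples (0.05 to 0.37). Ins1 had 0.19 (0.09 to 0.25 over samples) although Ins2 had 0.01. Manf, a secreted factor induced by stress of the endoplasmic reticulum (ER), had 0.18, and Nucb2, the precursor of nesfatin, had 0.17. Pdyn, which encodes the opioid precursor prodynorphin, had 0.16 and was positive in 8 of 8 samples. Hspa5, the main ER chaperone BiP, and Preb, which acts in the exit of vesicles from the ER, both had 0.15 and were positive in 7 of 8, and Lrrfip2 had 0.14. The lowest values were those of the ferritin chains Ftl1 (-0.18) and Fth1 (-0.13), the metallothioneins Mt1 (-0.17) and Mt2 (-0.16), and Rab37 (-0.15). The median over all genes was 0.00, and Dap, the paralog, was at 0.00. The leading 8 genes depended on the treatment of cells, and 5 of them stayed in the leading 8 at full depth and 7 with Spearman correlations.

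**Figure D4:**
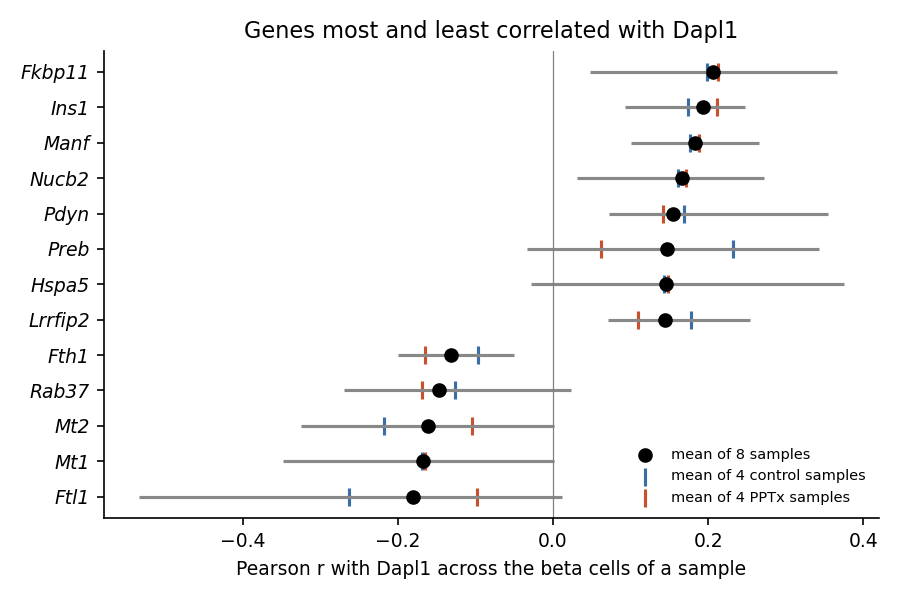
Pearson correlation with Dapl1 across thinned β-cells (horizontal axis) for the 8 genes with the highest and the 5 with the lowest mean over 8 samples. Dots are means of the 8 samples, ticks are means of the 4 control (blue) and 4 PPTx (orange) samples, and grey lines span the lowest to highest sample; Fkbp11 leads with 0.21 and Ftl1 is lowest with -0.18.

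Over the 8 samples, the levels most like Dapl1 among 1580 genes of at least 50 CPM were those of Atp2b1, a plasma membrane calcium pump (r = 0.96), Creld2, an ER protein (0.95), the tetraspanin Cd81 (0.94), Dpp3 (0.94) and Hap1 (0.93), given without p as these genes were selected by r and the samples form 2 groups. With group means taken out, Ppp1ca (0.98), Atp2b1 (0.96), Ncald (0.95), Adra2a (0.95) and Bag1 (0.95) were highest. Without control replicate 1, the first 5 correlations were 0.84 for Atp2b1, 0.93 for Creld2, 0.78 for Cd81, 0.75 for Dpp3 and 0.81 for Hap1. With group means taken out as well, those without that sample were 0.63 for Ppp1ca, 0.85 for Atp2b1, 0.79 for Ncald, 0.54 for Adra2a and 0.92 for Bag1, and those of the genes that led over samples were 0.32 for Creld2, 0.13 for Cd81, -0.24 for Dpp3 and 0.34 for Hap1.

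Gene lists around the known roles of Dapl1 were read in the same fits. Of 8 genes of ribosome dormancy and eIF5A, 6 could be tested between PPTx and control β-cells and none was called by edgeR or DESeq2, nor had any an unadjusted p under 0.05, where 0.270% (edgeR), 0.371% (DESeq2) and 9.49% of the other genes were, so that these counts are no result about the members. Dap was at 184 ± 20.8 CPM in control and 217 ± 45.1 CPM in PPTx (log2 difference 0.10, SE 0.16, edgeR adjusted p = 0.900), and Eif5a had a log2 difference of 0.20 (SE 0.23, edgeR adjusted p = 0.869). In cells with Top2a or Cdk1 4 of the 8 could be tested and 2 were positive (41.9% of all other genes were). Their median log2 difference was 0.02 beside -0.08 over all genes. EdgeR called 1 of the 4, beside 6.68% of all other genes, and DESeq2 called none, beside 6.11%, so that this is no result about the members. The 1 called was Serbp1, a ribosome-binding protein, which rose by 0.78 on the log2 scale (SE 0.24, edgeR adjusted p = 0.0251). Dap had a log2 difference of -0.47 there (SE 0.25, edgeR adjusted p = 0.303). Of 12 genes of autophagy and mTOR, a pathway the paralog Dap is known to restrain, 11 were tested and none was called by edgeR or DESeq2 (1, Gabarapl1, at an unadjusted p under 0.05), counts near the same background, with a median log2 difference of -0.13 beside -0.01 over all genes. E2f1, a transcription factor of cell-cycle entry, had a log2 difference of 1.07 (SE 0.31, edgeR adjusted p = 0.193).

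The 12 ER chaperones were all positive between PPTx and control, with a median log2 difference of 0.60 beside -0.01 over all genes, of which 48.7% were positive. Of the 12, 3 were called by edgeR, beside 0.270% of all other genes, and 5 by DESeq2, beside 0.371%. Sdf2l1 rose by 1.05 (SE 0.19, edgeR adjusted p = 0.0119), Creld2 by 1.04 (SE 0.20, edgeR adjusted p = 0.0189) and the protein disulfide isomerase Pdia6 by 0.68 (SE 0.14, edgeR adjusted p = 0.0369). All 12 had a positive mean correlation with Dapl1 across cells, as did 46.4% of all genes, with a median of 0.07. In cells with Top2a or Cdk1 2 of the 10 tested chaperones were positive (41.9% of all other genes were), with a median log2 difference of -0.33 beside -0.08 over all genes. The 1 called was Creld2 (0.66, SE 0.22, edgeR adjusted p = 0.0400), and 1 of 10 is near the 6.68% of all other genes called there. Of 14 genes of β-cell maturity 11 were tested and none was called between PPTx and control by edgeR or DESeq2, and 2, Slc2a2 and Neurod1, had an unadjusted p under 0.05 (log2 differences -0.56 and -0.34), as had 9.49% of all other genes. Of the 11, 2 were positive, with a median log2 difference of -0.14. As 0.270% of the other genes were called, a count of 0 among 11 genes is near that background and is no result about the members. In cells with Top2a or Cdk1 10 of the 11 were negative (41.9% of all other genes were positive), with a median log2 difference of -0.54 beside -0.08 over all genes. DESeq2 called 4 of them, beside 6.11% of all other genes, and edgeR called 2, beside 6.68%, which fell, G6pc2, a glucose-6-phosphatase of β-cells (log2 difference -1.10, SE 0.28, edgeR adjusted p = 0.00279), and Ucn3, urocortin 3 (-0.72, SE 0.23, edgeR adjusted p = 0.0322). Of 17 proliferation genes, 3 were abundant enough to test. All 3 were positive (48.7% of all other genes were) and had an unadjusted p under 0.05, as had 9.49% of all other genes. EdgeR called 1 of them as higher after PPTx, beside 0.152% of all other genes, and DESeq2 called none, beside 0.371% in either direction. The 1 called was Mcm6, a subunit of the replicative helicase (log2 difference 2.17, SE 0.38, edgeR adjusted p = 0.0119). The number of genes called between PPTx and control, 16 with all 8 samples, was 2 without control replicate 1, 2 without control replicate 2 and 1 without PPTx replicate 1, and 9 to 18 when 1 of the other 5 samples was left out. The other genes that rose between PPTx and control were Cks1b, a cyclin-dependent kinase subunit (log2 difference 1.37), Srm, which makes the spermidine from which the hypusine of eIF5A is formed (1.18), Fkbp11 (1.18), Tubb5 (0.94) and Ppib (0.92). Those that fell were Gad1 (-1.43), 2210019I11Rik (-1.42), Mt2 (-1.33), Mt1 (-1.24), T2 (-1.24), Crebrf (-1.23) and Trpm5 (-1.08).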

How the data were processed

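Islet cells of 8 samples were sequenced by single-cell RNA-seq. The labels name a Chromium 3′ v2 kit, whereas the study's methods name a ddSEQ workflow, and which was used was not settled here. Reads were processed by the authors with bcl2fastq and Cell Ranger against mm10, and the deposited tables hold raw UMI counts of 24421 genes per cell, which were used as deposited. The study's limits of 100 to 3000 genes and 100 to 20000 UMIs left 1232 of 1240 cells. Doublets were not called, and cells with no hormone at 60% of hormone UMIs were set apart as mixed. CPM is the summed Dapl1 UMIs of the cells of a sample per 1e6 of their UMIs. Whether a mouse gave islets to more than 1 sample is not given in the sources used here, so p-values measure the spread between these samples.

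UMI counts were summed per sample and cell class and fitted with edgeR 4.0.16 (R 4.3.3; filterByExpr, TMM, quasi-likelihood test, Benjamini-Hochberg adjustment over all genes tested, threshold 0.05), between groups of 4 for PPTx against control and with the sample as a block for cell types (at least 5 cells) and for cells with Top2a or Cdk1 UMIs. DESeq2 1.42.0, other scalings, filters, hormone shares, thinning and leaving out each sample were alternatives. On simulated data with 200 genes changed by 1.5 on the log2 scale, 91.5% were recovered for PPTx against control (5925 genes) and 99% for the Top2a or Cdk1 classes (1049 genes). Single values were compared with exact sign-flip permutation tests over samples. Shares have exact (Clopper-Pearson) 95% intervals. Genes were named if called between PPTx and control, if on a list, if a neighbour, or if among the leading correlates. The gene, the lists and the comparisons were chosen with earlier results of these data known, so no test here is that of a gene picked blind. Promoter letters and gene positions are from RefSeq (GRCm38.p6).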

Additional observations from a re-analysis of the deposited data

Results flagged for a closer look

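The level of Dapl1 in control β-cells was 49.9 CPM in replicate 1, far from the other 3 controls (gap over range 0.838). Among β-cells without a Top2a or Cdk1 UMI the same sample had 50.4 CPM (0.892). This sample had 55 β-cells and 10 Dapl1 UMIs in them. In all, 19 groups of 4 values were examined for such a sample, and chance gives about 1 in 20.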

How the results depend on the processing

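The log2 difference of Dapl1 between PPTx and control β-cells was positive under all 20 alternatives (0.83 to 1.27; 0.83 to 1.19 with 1 sample left out) and moved by less than the spread between samples (0.639). It was 1.27 in β-cells of 4000 to 8000 UMIs, an alternative added after seeing the data, as were cells of at least 5000 UMIs. β-cells exceeded PP-cells (4.82 to 6.05) and α-cells (1.05 to 1.84) in every alternative run, with edgeR or DESeq2 adjusted p of at most 0.0082. The difference for cells with Top2a or Cdk1 lost its call at 0.82 after thinning, which left 24 such cells, and at 0.19 without a filter (the cause was not tested); it kept its call in the other 17, with 0.80 to 1.02 when 1 sample was left out. The number of other genes called between PPTx and control, 16 (562 at an unadjusted p under 0.05), was 91 without a filter, 7 after thinning, 4 at 4000 to 8000 UMIs and 1 to 18 with 1 sample left out. It was 2 without control replicate 1, 2 without control replicate 2, 9 without control replicate 4 and 1 without PPTx replicate 1. With the replicate number as a block it was 37, and Dapl1 was at 1.09. Same-numbered samples correlated at 0.04 to 0.14 in their deviations, and the other pairs at -0.10 to 0.07. Every sample except control replicate 2 correlated best with its own number, and control replicate 2 did so with PPTx replicate 3. What same-numbered samples share beyond the number is not given in the sources used here, and a shared batch was not tested. Of the 8 leading correlates, 5 remained without thinning and 5 to 8 with 1 sample left out. The share of β-cells with Dapl1 differed by 18.9 percentage points after thinning and 17.4 at full depth, where the groups overlapped. The full-depth difference depended on control replicate 1. Without that sample the control share was 29.0% after thinning and 50.5% at full depth, beside 44.0 and 59.4% in PPTx. The edgeR test against δ-cells was not run, since no sample had 5 of them. The number of cells limits what was measured in δ-cells (14 cells) and in PPTx α-cells (20 cells).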

Other observations

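Among the 15 cells with no leading hormone, 2 Dapl1 UMIs were found, both in 1 cell of a PPTx sample. The 1 ε-cell had none, at a depth of 7942 UMIs.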
